A study of Mus musculus with 8 samples.

Results

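*Rai1* and *Srebf1* are neighbouring genes on mouse chromosome 11 whose 3' ends overlap by 109 bases, and their DNA methylation was compared between hepatocytes of mid-aged and young mice. The members are the CpGs with at least 5 reads in every mouse, both strands summed, from 4877 bases before the first annotated *Rai1* start to beyond the most upstream *Srebf1* start. They number 394 of the 897285 CpGs tested in the genome, of which 293 lie in *Rai1* (ENSMUSG00000062115.15, GRCm38 chr11:60105013-60199197, forward strand), 48 in *Srebf1* (ENSMUSG00000020538.15, chr11:60199089-60222581, reverse strand) and 53 in neither. The stretch was chosen by its measured methylation differences between the ages, with the *Rai1* calls known, so the age differences below describe it and are not independent support. The mice were female C57Bl6/J, 4 of them mid-aged at 40 weeks and 4 of them young at 10 weeks. Perfusion of the liver gave the hepatocytes, and each mouse gave 1 library for reduced representation bisulfite sequencing (RRBS). RRBS cuts DNA with *Msp*I at CCGG, converts unmethylated cytosine and reads the fragment ends, so the percent of methylated reads at a CpG is taken as its methylation level.

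*Rai1*, retinoic acid induced 1, encodes a nuclear protein that binds nucleosomes and takes part in transcription, and loss of one human copy causes Smith-Magenis syndrome, with obesity and disturbed circadian rhythm. *Srebf1* encodes SREBP-1, a membrane-bound transcription factor that is cleaved, moves to the nucleus and switches on genes of fatty acid and triglyceride synthesis. Different starts give the forms SREBP-1a and SREBP-1c, of which SREBP-1c predominates in liver. CpG-rich starts of active genes are usually unmethylated, whereas the bodies of transcribed genes are usually methylated.

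The sequences below come from GRCm38 and are given along the strand of their gene. Capitals mark called CpGs in *Rai1* and tested CpGs in *Srebf1*. The *Rai1* window lies in the untranslated first exon that begins at the internal start and holds 4 of the called CpGs. Both coding windows of *Srebf1* lie where the mid-aged mean was lower without passing the test, and the remaining window lies just before the SREBP-1c start, where both ages were almost unmethylated.
Rai1 internal start (chr11:60140117-60140146, forward strand): gaagCGaggggctggagaggCGcggCGCGc
Srebf1 coding exon 2 (chr11:60206925-60206954, reverse strand): ctgcagCGccacagcCGtcacCGgggaccc
Srebf1 coding exon 19 (chr11:60199941-60199970, reverse strand): gcagatgctcctgCGcctgggCGgcggaac
Srebf1 before the SREBP-1c start (chr11:60210613-60210642, reverse strand): aaccccagCGCGCGctggCGcagaCGCGgt

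Reads over CpGs numbered 84639955 to 118395064 in a mid-aged and 46321447 to 72710972 in a young library, and the mean over all tested CpGs was 44.2 to 44.3% in mid-aged and 43.6 to 44.1% in young mice. The libraries of the 2 ages also differed in which positions they read. Of 11313 CpGs that lie 3 bases from an *Msp*I site and had at least 5 reads in every mid-aged mouse, 6465 (57.1%) had at most 2 reads in every young mouse, against 0.485% of other CpGs, and in the reverse direction 0 of 105 CpGs 3 bases from a site did so. Age and this library difference cannot be told apart, and its part in the results below was not tested. On mitochondrial DNA 1.22 to 4.75% of CpG reads were methylated in mid-aged and 1.22 to 1.73% in young libraries. On a contig named L the shares were 0.463 to 3.56% and 0 to 4.08%, on 147 to 449 reads in a library. Whether conversion differed between the libraries was not tested. Promoters of marker genes gave little on cell type: of the 8 hepatocyte genes checked only *Hnf4a* (17.0% in mid-aged and 8.32% in young mice) and *Apob* (22.6% and 14.98%) had enough CpGs, and of 6 leukocyte genes only *Adgre1* (85.2% and 89.2%). Promoter means of 2 of 5 endothelial genes spanned 2.65 to 93.8% in mid-aged and 2.66 to 90% in young mice, those of 4 of 5 stellate genes 2.48 to 40.7% and 1.84 to 41.7%, and those of 5 of 5 cholangiocyte genes 2.07 to 74.5% and 1.16 to 71.8%.

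Of the 1988 CpGs of the stretch in GRCm38, 909 were read in at least 1 mouse and 515 in all 8. The members were CpG-dense, with a median of 18 CpGs within 100 bases against 9 for all tested CpGs. In young mice 278 members lay under 20%, 84 over 80% and 32 between. At the read minimum itself, 44 members had 5 reads in their shallowest mouse, with a median level of 0.697% in mid-aged and 1.13% in young mice. Just under it, 16 CpGs had 4 reads, with 1.68% and 2.62%.

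**Figure D1:**
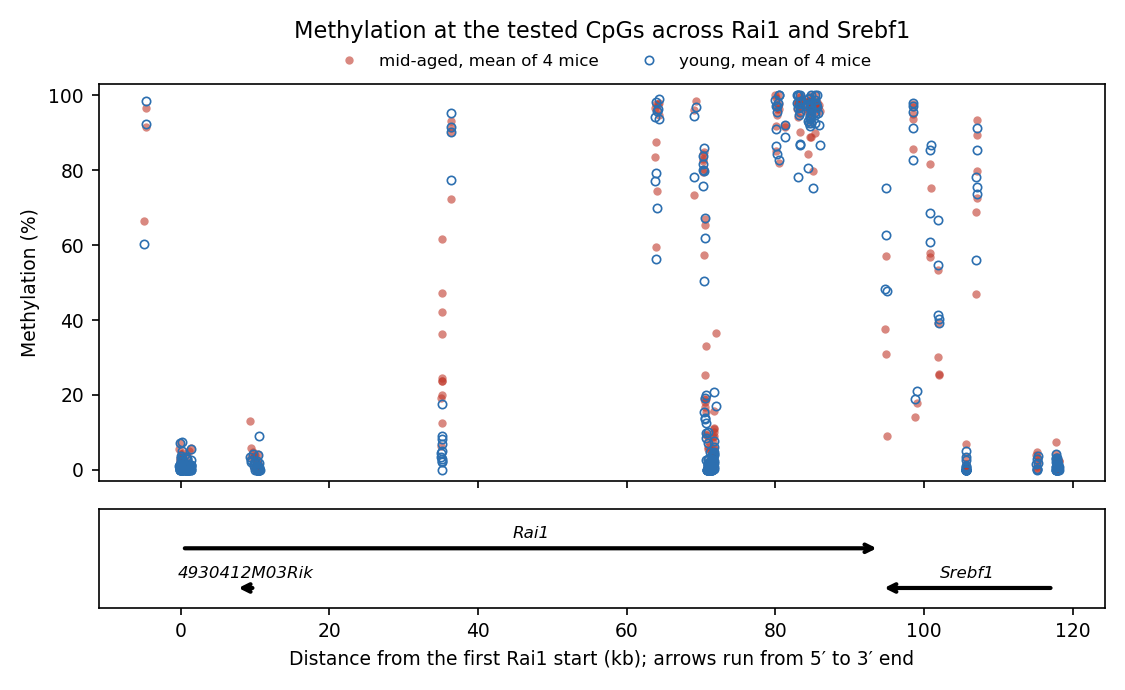
Methylation in percent (y axis) of each member CpG against its distance from the first Rai1 start in kb (x axis), as the mean of 4 mid-aged mice (filled) and of 4 young mice (open), with gene arrows beneath. The first Rai1 start and the upstream Srebf1 starts lie near 0%, the 3' part of Rai1 near 100%, and the ages are farthest apart at the internal Rai1 start and at the 3' end of Srebf1.

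The age comparison asked which CpGs of hepatocyte DNA differ between mid-aged and young mice. In *Rai1*, 8 CpGs were higher in mid-aged mice and none was lower, and all 8 lay within a stretch of 93 bases at an internal transcription start. In *Srebf1* no CpG passed. A call required an adjusted p under 0.05 in a quasi-binomial test moderated by limma. It also required means at least 5 percentage points apart and, in each group, a variance of the methylated fraction under 0.05. Among all tested CpGs 0.0615% were called higher and 0.102% lower, and the locus held 8 higher and 0 lower of 394. At an unadjusted p under 0.05 in the same quasi-binomial test, 21 members were higher and 17 lower (5.33% and 4.31%), beside 5.16% and 3.93% of all tested CpGs. Mice of the 2 ages did not overlap at 22 of the 394 members in the higher and 5 in the lower direction, beside 2.33% and 1.24% of all tested CpGs. Of the 22, 10 lay in the stretch of 93 bases, where CpGs share reads. With limma on M values, logit-scaled levels, none of the 8 calls held. That test put 31 members higher and 32 lower at an unadjusted p under 0.05, beside 115602 of all 897285 tested CpGs in either direction. Without mid-aged mouse 3, mid-aged mouse 4 or young mouse 3 there were 4, 4 and 5 calls in the quasi-binomial test.

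The 11 tested CpGs of this run, chr11:60140064-60140156, extend from 18 bases before to 74 bases after the internal start at 60140082, which is 35069 bases downstream of the first *Rai1* start. In the transcript from the first start the run lies in intron 1, and in the transcript that begins here its part after the start is 5' UTR of exon 1. Its mean methylation was 26.8, 25.0, 30.3 and 33.4% in mid-aged mice 1 to 4, against 4.17, 7.29, 6.21 and 4.67% in young mice 1 to 4. Every mid-aged mouse lay above every young mouse, as in 3.48% of all runs. The difference was 23.28 percentage points (SE 1.79) with an adjusted p of 0.00623 in limma over 91816 such runs of the genome, of which 0.0338% were called higher and 0.0501% lower. The same 11 CpGs form the promoter window of 3 *Rai1* starts (adjusted p = 0.00372, limma over 56782 promoter windows, 0.0405% called higher and 0.0176% lower). Since 10 of the 11 were read on the forward strand alone within these 93 bases, they share reads and are not separate measurements. Without mid-aged mouse 1 the promoter window no longer passed in limma (adjusted p = 0.0870), while the run did (0.0229). The numbers of reads at one of the 11 CpGs ran from 26 to 115 in a mid-aged and from 21 to 92 in a young mouse.

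**Figure D2:**
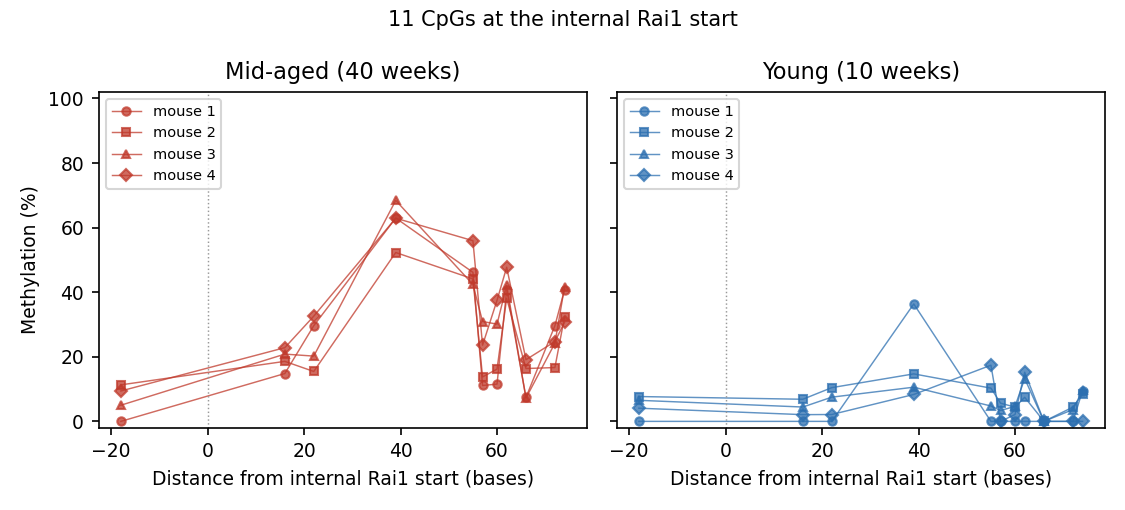
Methylation in percent (y axis) at the 11 CpGs of the run against distance from the internal Rai1 start in bases (x axis), 1 line for each mouse, mid-aged at the left and young at the right. The mid-aged mice share one up-and-down pattern that peaks 39 bases after the start, at 52.3 to 68.4%.

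The CpG with the largest difference lay at 60140121. Its level was 63.0, 52.3, 68.4 and 62.9% in mid-aged mice, against 36.4, 14.7, 10.6 and 8.33% in young mice. The quasi-binomial test gave an adjusted p of 0.000947 for this difference of 44.15 percentage points. Young mouse 1 was the highest of the young mice there, at 22 reads (Wilson 95% interval 19.7 to 57.1%), and it still lay under the lowest mid-aged mouse, mouse 2 (43.0 to 61.4%, 109 reads). Such intervals, and the upper limits below, hold counting error alone, because PCR copies could not be told from separate molecules. The CpG at 60140137 had 46.2, 44.1, 42.4 and 56.0% in mid-aged mice against 0, 10.3, 4.76 and 17.4% in young mice, a difference of 39.04 percentage points (quasi-binomial adjusted p = 0.00175). Here too every mid-aged mouse lay above every young mouse. At 60140148 the mid-aged mice had 7.41, 16.4, 7.22 and 19.1%, while all young mice had 0 methylated reads. Those 0 counts, of 25, 73, 88 and 48 reads, allow up to 12.0, 4.11, 3.41 and 6.25%.

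The other called CpGs lay between these in size. At 60140144 the mid-aged mean was 42.2% ± 4.06 and the young mean 8.98% ± 6.83 (SD, n = 4 each), and 36.4% ± 5.64 and 6.86% ± 4.61 at 60140156. It was 23.8% ± 5.35 and 2.02% ± 2.35 at 60140154, and 23.8% ± 12.1 and 2.80% ± 2.18 at 60140142. At 60140098 it was 19.3% ± 3.44 and 3.34% ± 2.96. Adjusted p-values of these 5 CpGs in the quasi-binomial test ran from 0.00374 to 0.0409. Of the remaining CpGs of the run, 60140104 (means 24.5% and 5.02%, quasi-binomial adjusted p = 0.197) and 60140139 (means 19.8% and 2.25%, adjusted p = 0.0611) had mice that did not overlap between the ages, and neither passed. At 60140064, the CpG of the *Msp*I site itself, the mice overlapped, with means of 6.43% in mid-aged and 4.57% in young mice.

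Levels changed sharply from one CpG to the next in mid-aged mice. The mean step between neighbouring CpGs of the run was 17.3 percentage points. The CpG at 60140121 was the highest of the 11 in each mid-aged mouse, and 60140148, just 4 bases after 60140144, was lower than it in each of them.

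CpGs beside the run that missed the read minimum gave a measure outside the member rule, in windows chosen after their values were seen, so they are described without a test. Only CpGs read at least once in every mouse were pooled, since some others had reads at one age alone. Over 9 such CpGs before the run (60139972 to 60140039) the reads were methylated at 0, 3.70, 5.56 and 0% in mid-aged mice and at 4, 3.23, 5.13 and 2.86% in young mice, on 9 to 62 calls in each mouse. Over 9 CpGs after the run (60140290 to 60140403) they were methylated at 44, 46.9, 47.3 and 44.95% in mid-aged mice, against 11.1, 13.9, 0 and 13.3% in young mice. In the window after the run the mice of the 2 ages did not overlap, and the calls numbered 55 to 130 in a mid-aged and 16 to 115 in a young mouse. One read gives calls at several CpGs, so the reads were far fewer than the calls. At 60139986, before the run, mid-aged mice had 1, 3, 6 and 2 reads and young mice 3, 7, 5 and 4. At 60140381, after it, they had 13, 15, 7 and 13 against 3, 11, 1 and 3. In these few reads mid-aged and young levels were close before the run and apart after it, which cannot place a boundary. One CpG inside the run, at 60140067 and 3 bases from the *Msp*I site, was read 27, 113, 96 and 92 times in mid-aged mice but 0, 1, 2 and 2 times in young mice, and is no member.

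The first start of *Rai1* was nearly unmethylated at both ages. In the first intron, 60106190 had 4.35, 5.56, 6.52 and 3.70% in mid-aged mice and 0% in every young mouse, without passing (quasi-binomial adjusted p = 0.378). At the first start, the 47 CpGs from 60104825 to 60105296 averaged 1.36% ± 0.178 in mid-aged and 1.21% ± 0.625 in young mice, and the 51 CpGs from 60105640 to 60106401 averaged 0.781% ± 0.144 and 0.719% ± 0.254. No CpG passed there, and the difference of the first run was 0.15 percentage points (adjusted p = 0.948, limma). The window from 250 bases before to 50 bases after a start holds 29 CpGs at this first start and 28 at the internal start, against a median of 7 over 32851 RefSeq promoter windows of mouse. Both *Rai1* starts are therefore CpG-dense, and the runs at them had age differences of 0.15 and 23.28 percentage points. These windows end at 60105062 and 60140131, so each covers only part of its run. The non-coding gene *4930412M03Rik*, which lies within *Rai1* on the opposite strand, had 0.662% ± 0.218 and 0.931% ± 0.635 over the 23 CpGs before its start. Over its 8 CpGs within the gene the mean was 4.49% ± 1.04 and 2.17% ± 1.14, which did not pass (adjusted p = 0.251, limma).

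A further *Rai1* start, at 60175879, sat in a run of 95 tested CpGs with graded levels. The 6 CpGs from 60175308 to 60175382 averaged 82.4% in mid-aged and 81.2% in young mice, the next 12 averaged 29.6% and 24.6%, and the 60 around the start averaged 1.365% and 1.108%. Over the whole run the mice lay at 10.4, 11.3, 12.3 and 11.1% in mid-aged and at 8.72, 10.5, 10.1 and 10.1% in young mice, with a difference of 1.41 percentage points (adjusted p = 0.615, limma). Its last CpG, 60176975, had 36.6% ± 13.8 and 17.0% ± 3.29 and did not pass (adjusted p = 0.577, quasi-binomial test).

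The large coding exon 3 of *Rai1* was almost fully methylated. Its 54 members had a median of 97.0% in mid-aged and 96.7% in young mice, and none passed the quasi-binomial test. At an unadjusted p under 0.05, 0 were higher and 2 lower (3.70%), beside 5.16% and 3.93% of all tested CpGs. Averaged over all 293 CpGs, *Rai1* had 29.5, 29.9, 29.8 and 30.1% in mid-aged mice, against 27.7, 28.4, 28.2 and 28.6% in young mice. The ages did not overlap, as for 5.37% of all gene means in this direction, yet the difference of 1.64 percentage points (SE 0.354) did not pass in limma (adjusted p = 0.116, beside 0.262% of genes called higher). With reads pooled over CpGs it was -5.19 percentage points (adjusted p = 0.478, limma), so no direction is given for the gene as a whole. Outside the run at the internal start, 282 *Rai1* members held no call in the quasi-binomial test. At an unadjusted p under 0.05, 11 were higher and 6 lower (3.90% and 2.13%), below the 5.16% and 3.93% of all tested CpGs.

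In *Srebf1* methylation was low at the upstream starts, high in some exons and intermediate in others, and the mid-aged means were lower in the intermediate part of the body. The 15 CpGs before the SREBP-1c start (60210585 to 60210708), whose start lies at 60210465, averaged 1.15% ± 0.544 in mid-aged and 0.904% ± 0.912 in young mice. The run of 7 CpGs in intron 1 from 60220089 to 60220322, beside the SREBP-1a start at 60220604, averaged 2.29% ± 1.21 and 1.49% ± 1.33. The 31 CpGs upstream of the outermost start (60222689 to 60223162) averaged 1.16% ± 0.233 and 0.997% ± 0.441. Mice of the 2 ages overlapped at each of these 3 runs. The promoter windows of 300 bases hold 36, 14 and 17 CpGs at the SREBP-1c, the SREBP-1a and the outermost start, so all 3 are denser in CpGs than the RefSeq median of 7. Between the starts, 6 CpGs of intron 1 (60212019 to 60212189) had a mid-aged mean of 75.2% ± 0.609 and a young mean of 76.7% ± 6.50.

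**Figure D3:**
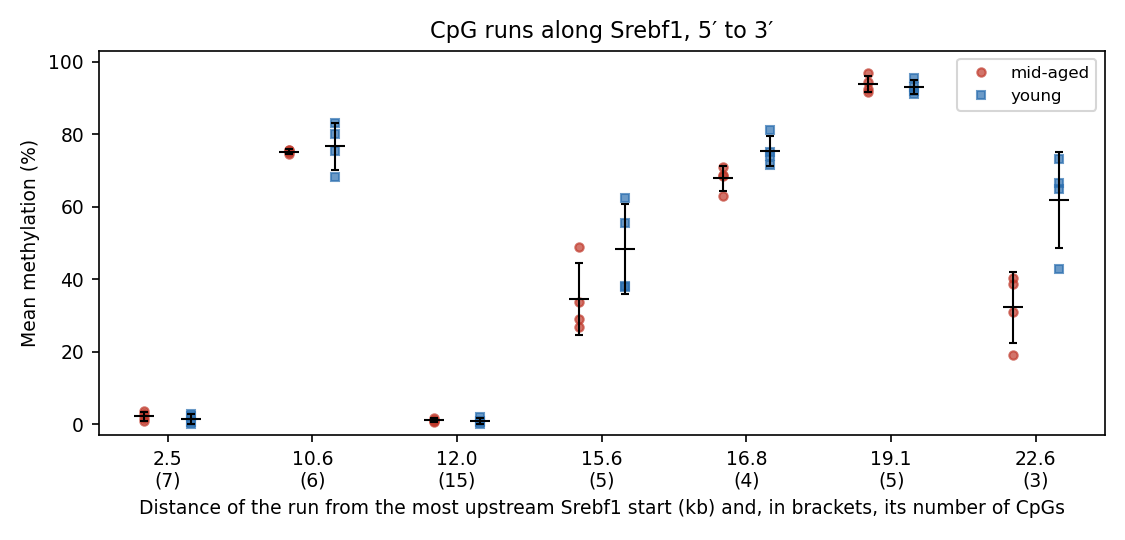
Mean methylation in percent (y axis) of 7 CpG runs along Srebf1, ordered by distance from its most upstream start (x axis), for each mid-aged mouse (circles, left of each pair) and young mouse (squares, right), with mean and SD as bars. The mid-aged means are farthest below the young means at 15.6, 16.8 and 22.6 kb, and the mice do not overlap at 16.8 and 22.6 kb.

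The 3 CpGs of coding exon 19, the last exon, had the largest difference in *Srebf1*. Their mean was 19.0, 38.7, 31.0 and 40.4% in mid-aged mice, against 42.9, 73.1, 64.8 and 66.7% in young mice. The ages did not overlap, as for 2.16% of all runs in this direction, but the difference of -29.57 percentage points (SE 7.15) did not pass in limma (adjusted p = 0.265). The CpG at 60199989 lay at 0, 17.2, 0 and 18.8% in mid-aged mice, against 23.1, 78.3, 42.9 and 47.1% in young mice, and did not pass either (quasi-binomial adjusted p = 0.332). Mid-aged mouse 1 had 7 reads there, so its 0% allows up to 42.9%.

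The same exon continues into the 3' UTR, where the single CpG at 60199707 had 37.5% ± 7.07 in mid-aged and 48.3% ± 8.83 in young mice (quasi-binomial adjusted p = 0.472). In coding exon 2, 5 CpGs (60206932 to 60207022) had a mean of 48.9, 29.1, 33.7 and 27.0% in mid-aged mice, against 62.4, 38.0, 55.5 and 38.1% in young mice. These overlapped, and the difference of -13.81 percentage points (SE 6.86) did not pass (adjusted p = 0.635, limma). Among CpGs of this exon read 10 or more times in each mouse, the one with the largest difference, 60207018, had 40.0, 19.2, 17.2 and 25.6% in mid-aged and 59.3, 23.8, 46.7 and 31.6% in young mice (-14.80 percentage points, adjusted p = 0.473, quasi-binomial test).

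At the border of intron 5 and exon 5, 4 CpGs (60205787 to 60205917) averaged 67.8% ± 3.43 in mid-aged and 75.4% ± 4.12 in young mice (-7.53 percentage points, adjusted p = 0.571, limma). Their mouse means ran from 63.0 to 71.1% in mid-aged and from 71.4 to 81.1% in young mice, without overlap. By contrast the 5 CpGs of coding exon 10 stood at 93.8% ± 2.27 and 92.9% ± 1.95. Downstream of the SREBP-1c start, 17 of 20 tested CpGs had a lower and 3 a higher mid-aged mean (median -10.75 percentage points), beside a median of 0.21 over all tested CpGs. That background is an unlike set, since 48.6% of all tested CpGs lay under 20% and 37.3% over 80% in young mice. The 12 of these 20 CpGs between 20 and 80% in young mice were all lower, with a mean of 39.4, 35.3, 35.7 and 36.4% in mid-aged mice, against 52.4, 50.3, 56.8 and 49.4% in young mice. None of the 20 passed the quasi-binomial test, with 9 lower and 0 higher at an unadjusted p under 0.05. Many of them share reads, so these counts are no test.

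Averaged over its 48 tested CpGs, *Srebf1* had 33.6, 32.1, 32.2 and 32.5% in mid-aged mice, against 35.4, 36.7, 38.6 and 36.4% in young mice. The ages did not overlap, as for 2.48% of gene means in this direction. The difference was -4.20 percentage points (SE 0.731) and did not pass (adjusted p = 0.0642, limma over 21788 genes, of which 0.216% were called lower). With a minimum of 10 reads it was -2.79 percentage points (adjusted p = 0.297, limma), a mean that no longer included the exon 19 CpGs 60199948 and 60199989.

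Against the whole genome, the run at the internal *Rai1* start stood among the largest gains, as the choice of the locus implies. Of 91816 runs, 25 had a difference at least as large, itself included, and among the 20393 runs under 10% in young mice 2 did. CpGs within 500 bases of a start and under 20% in young mice were called higher at 0.0273% of 318508.

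**Figure D4:**
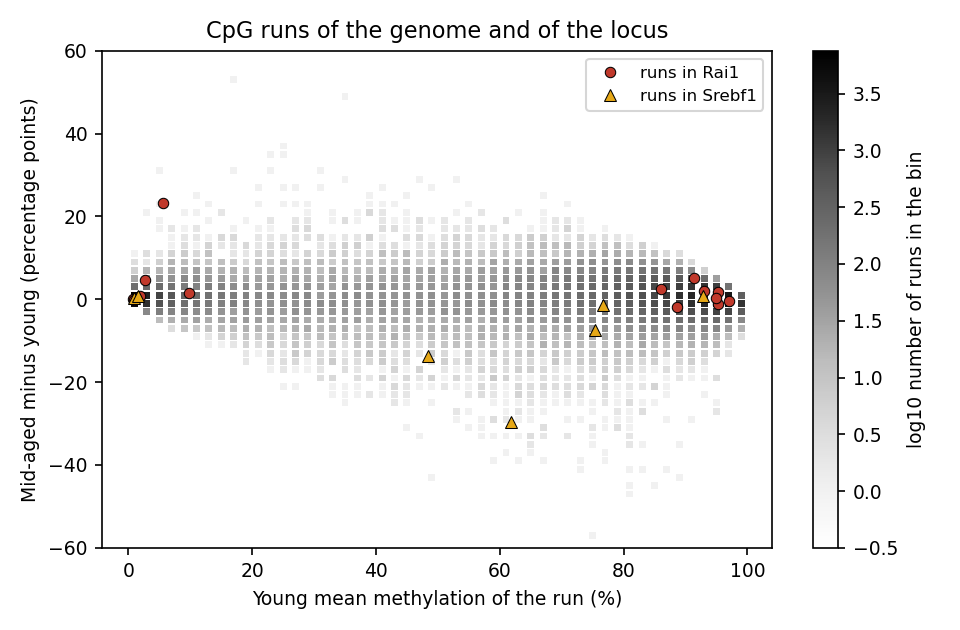
Difference in mean methylation between mid-aged and young mice in percentage points (y axis) against the young mean in percent (x axis) for CpG runs, as grey bins for the genome and as symbols for runs in Rai1 (circles) and Srebf1 (triangles). One Rai1 run lies at 23.28 points above a young mean of 5.59%, and a Srebf1 run at -29.57 points.

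In the SREBP pathway, a list of 23 regulators and targets, 0 of 1350 tested CpGs were called higher and 18 (1.33%) lower in the quasi-binomial test, in 4 genes, beside 0.0615% higher and 0.102% lower among all tested CpGs. This list and those below were chosen with earlier results of these data known, so their shares are no independent support for a pathway pattern. *Fasn*, fatty acid synthase and a classical SREBP-1 target, held 14 of the 18. Its largest difference, at 120820065 of chromosome 11, was 32.4% ± 6.34 in mid-aged against 88.3% ± 6.47 in young mice. *Mlxipl*, the gene of the sugar-responsive factor ChREBP, held 2, with 28.8% ± 4.08 against 65.7% ± 16.7 at chromosome 5, position 135100716. *Acacb* and *Scd1*, an acetyl-CoA carboxylase and a fatty acid desaturase, held 1 each, both lower. The other genes of the list, among them *Srebf2*, *Scap*, *Insig1* and *Insig2*, held no call.

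Circadian clock genes (13 genes, 815 CpGs) held 0 calls in either direction in the quasi-binomial test, which is near the background of 0.0615% and 0.102% over all tested CpGs. Of 20 neighbours in the segment syntenic to the human Smith-Magenis region (836 CpGs), *Mief2*, which acts in mitochondrial fission, held both calls, with 61.1% ± 6.13 in mid-aged against 86.0% ± 3.53 in young mice at chromosome 11, position 60731708. Both calls were lower in mid-aged mice, 0.239% of the CpGs of these neighbours beside 0.102% of all tested CpGs.

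The genes whose mouse means deviated most like those of *Rai1*, among 15907 genes with at least 10 tested CpGs and over the 8 mice, were *Pcdh10*, *Gm14964* and *Gm12446*, with a root mean square difference of 0.216 to 0.225 percentage points. For *Srebf1* they were *Asb16* (0.529), *Acsl5* (0.647) and *Abcb8* (0.665). *Asb16* averaged 23.85% in mid-aged and 27.29% in young mice, *Acsl5*, an acyl-CoA synthetase gene, 26.3% and 30.2%, and *Abcb8* 37.94% and 41.52%. *Srebf1* averaged 32.6% and 36.8%. The genes were matched over the means of all 8 mice, so a like age difference follows from the choice.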

How the data were processed

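RRBS was read in hepatocytes of 4 mid-aged and 4 young mice. The authors deposited a methylation percent for CpG cytosines with reads (mm10), and beside it the authors deposited coverage as counts of reads. Tools in the submitters' processing notes are Picard 1.115, SAMtools 1.3, BWA 0.6.2, Trim Galore 0.4.2 and FastQC. Which program called methylation was not given in the sources. Methylated reads were computed as percent times coverage, and strands were summed. CpGs needed 5 reads in every mouse. Counting error follows the reads at each CpG, and median coverage was 41 to 76 in mid-aged and 29 to 51 in young libraries.

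CpGs were compared by a quasi-binomial model with an F test and a dispersion moderated by limma 3.58.1 and not below 1, with Benjamini-Hochberg adjustment over all tested CpGs. Means of promoters (1500 bases upstream to 500 downstream of a start), genes and runs (at least 3 CpGs, gaps of at most 200 bases) were compared by limma with a trend. Both were tested on simulated data, where the CpG test made more false calls than its nominal rate and missed most of the smaller changes. Differences are mid-aged minus young. P-values set differences against the spread between these mice, moderated across all CpGs or features, and so not against the spread at 1 CpG alone. GENCODE vM21 gave the annotation, and RefSeq (GRCm38) the promoter windows. Python 3.11.15 and R 4.3.3 were used.

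The members, gene lists and tests were chosen with earlier results of these data known. The text names all called members, the 3 uncalled ones with the largest difference at 10 or more reads in every mouse, each run called or at a start, up to 2 genes of a list with the most calls, and the 3 genes most like *Rai1* and *Srebf1*. Other members were chosen after their values were seen. Alternatives changed the read minimum, the test, the call criteria, the depth, the weighting and the mice included, and added the replicate number. One further gene list is not reported here.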

Additional observations from a re-analysis of the deposited data

Results flagged for a closer look

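A single mouse stood apart from the other 3 of its group in 2 of the groups checked for *Rai1* and *Srebf1*. At 60140156, the last CpG of the run at the internal *Rai1* start, young mouse 4 had 0% of 48 reads, while the other young mice had 9.52, 8.33 and 9.59%. In the run of 3 CpGs from 60190790 to 60191055, in *Rai1* intron 3, young mouse 1 averaged 73.98%, against 95.8 to 98.1% in the other young mice. Chance gives such a gap in about 1 in 20 groups, and 74 groups were checked.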

How the results depend on the processing

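The count of 8 higher members fell to 0 with limma on M values and to 0 with the replicate number as a block. M values left 16 higher and 24 lower calls in the genome. At an unadjusted p under 0.05 they gave 31 members higher and 32 lower, beside 115602 of 897285 tested CpGs in either direction. The block left 0 calls in the genome. It gave 11 members higher and 4 lower at an unadjusted p under 0.05 in the quasi-binomial test, beside 34599 of 897285 tested CpGs in either direction. The count of higher members was 9, 8 and 6 with 10 reads, 3 reads and reads thinned to the lowest coverage. When 1 mouse was left out it was 4 to 9 (4 without mid-aged mouse 3 or 4, 5 without young mouse 3). The CpGs 60140121, 60140137 and 60140144 passed in 13 of 15 alternatives, all but M values and the block, whereas 60140098 passed in 6 and 60140142 in 7, and 60140139, not called, passed in 4. No member was called lower in any. Correlations of same-numbered mice (-0.00252 to 0.00805) lay within those of differently numbered mice (-0.00913 to 0.0101). They gave no sign that the numbers pair the mice, but whether a true pairing would show in them was not tested. With the block, which in a balanced design leaves the difference of 23.28 percentage points as it is, the run at the internal start (adjusted p = 0.153, limma) and its promoter window (adjusted p = 0.124) no longer passed. Leaving out 1 mouse gave 21.78 to 24.56 for the run (highest adjusted p = 0.0407) and 21.78 to 24.56 for the window (0.0870). The *Rai1* gene mean reversed to -5.19 with pooled reads and otherwise stayed between 1.43 and 2.24, and the *Srebf1* gene mean stayed between -9.84 and -2.79, without passing. Calls in the lists were the same within gene bodies alone. The cause of these changes was not tested. Depth limits exon 19 of *Srebf1*, where mid-aged mouse 1 had 7 reads.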
